A study of Rattus norvegicus with 4 samples.

Results

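The genes described here are 10 members of bone morphogenetic protein (BMP) signalling: the Id genes Id1, Id2, Id3 and Id4, the ligand gene Bmp4, its antagonist gene Nog, the decoy receptor gene Bambi, and the Smad genes Smad1, Smad6 and Smad7. They were chosen by name from an array of 45598 probes. Each matched 1 probe through the RefSeq accession that the array gives for it, so 10 of 10 had a measurement and none had a second probe. Of these, 9 entered the comparison among 11669 genes with a symbol, and Id3 did not, because 0 of the 4 arrays showed its probe well above background. Cultured rat oligodendrocyte precursor cells, prepared from cortex on postnatal day 2 and expanded with bFGF and PDGF for 3 days, were transfected by Lipofectamine RNAiMax at 50 nM. One group received mimics of miR-125a-3p and the other a negative control RNA (miR-neg), with 2 samples in each group and 1 single-colour Agilent array per sample. RNA was taken at 48 h. All 4 samples share the growth factors and the transfection reagent, and all are listed with 2 days in vitro. The samples are called independent by the submitters, but no label ties them to separate animals or cultures, so a p-value here reflects only how far these arrays scatter, which may be technical. A mimic raises the microRNA from outside the cell, so these samples are no measure of the cells' own microRNA.

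BMP ligands bind paired serine/threonine kinase receptors, which phosphorylate Smad1 and its relatives. These join Smad4, enter the nucleus and switch on targets, among which the Id genes and the inhibitory Smad genes Smad6 and Smad7 are well known. Id proteins carry a helix-loop-helix domain without a DNA-binding region, so they hold E proteins and other helix-loop-helix factors away from DNA. In rodent precursor cultures, BMP ligands are known to turn the cells from the oligodendrocyte fate toward the astrocyte fate, and Id2 and Id4 are known to bind Olig1 and Olig2.

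The microRNA supplied is shown because its seed, bases 2 to 8 from the 5′ end and given in capitals, sets which transcripts it pairs with. The other arm of the same hairpin has a different seed and was not supplied. Both sequences are from RefSeq, build GRCr8, on the plus strand at chr1:67350727-67350748 for the 3p arm and chr1:67350689-67350712 for the 5p arm.
rno-miR-125a-3p: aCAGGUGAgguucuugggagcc
rno-miR-125a-5p: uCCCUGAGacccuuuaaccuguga
Among 724 mature rat microRNAs in that table, 1 carried the seed CAGGUGA, namely miR-125a-3p itself. Target sites of a microRNA usually lie in the 3′ UTR of a transcript, and the 3′ UTRs of the members were not examined here.

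The arrays had between 26874 and 28100 probes well above background after the mimic and between 26293 and 26781 in the controls, and 0 spots were saturated. Values below are log2 processed signals relative to the 75th percentile of the same array, and differences are miR-125a-3p minus miR-neg. The SD of the log2 difference between arrays of 1 group was 0.33 for miR-125a-3p and 0.34 for miR-neg, against 0.39 to 0.45 for arrays of different groups. In limma, 158 of 23142 features passed a Benjamini-Hochberg adjusted p of 0.05, which is 0.683% (87 higher and 71 lower, or 37 higher and 46 lower with quantile normalization). The smallest difference among them was 0.84 in size. All 4 arrays shared 1 slide, and along 1 of its axes the position of an array followed its group, so that position and treatment cannot be told apart.

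None of the members passed, a count of 0 of 9 in limma. At an unadjusted p of 0.05, 2 of 9 members stood out, Id1 higher and Smad7 lower, against 19.6% of all features. The groups did not overlap for 5 of 9 members, against 52.9% of all features, so both shares are close to the background. The members' differences ran from -0.37 to 0.34 with a median of -0.02, beside a median of 0.015 over all features, and their median size was 0.19 beside 0.15. With 2 arrays a side, the smallest p of an exact permutation test is 0.333. No feature with a difference under 0.84 in size passed, so a missed threshold does not show that a member was the same in both groups, and each difference is given with its 95% interval.

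**Figure D1:**
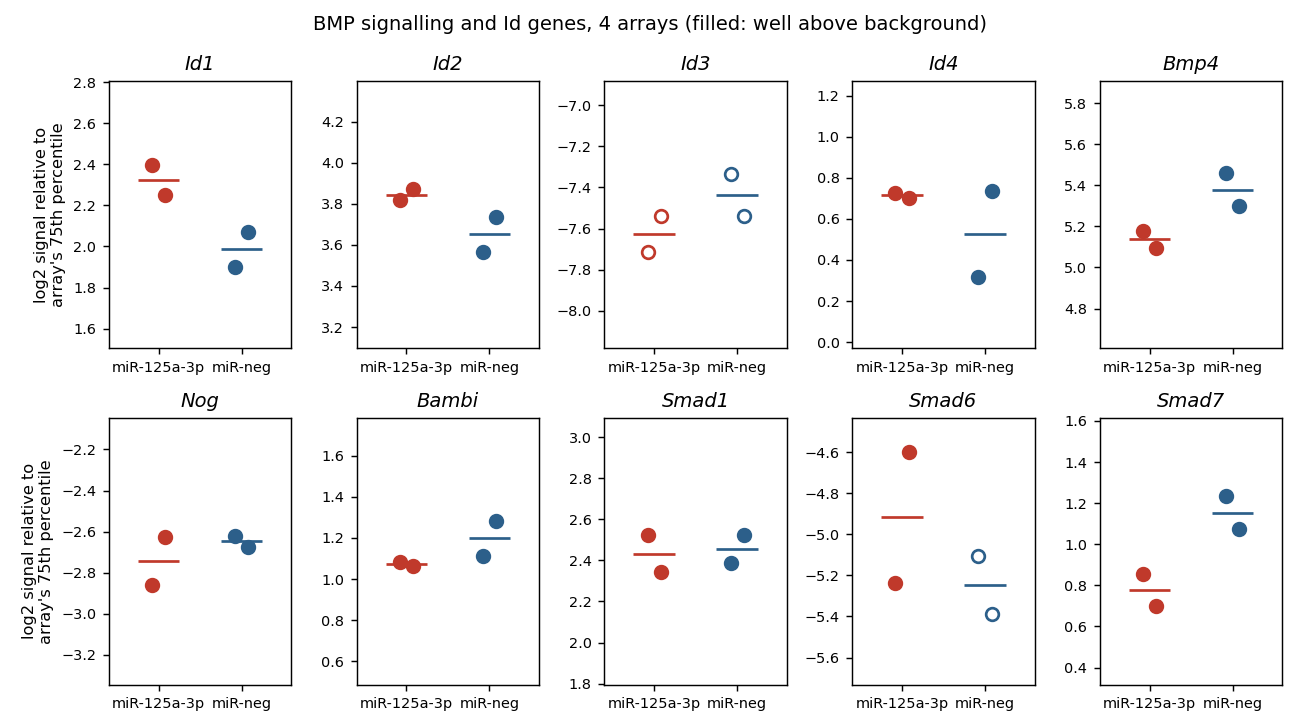
Each panel plots 1 gene as log2 signal relative to the array's 75th percentile, with miR-125a-3p arrays on the left and miR-neg arrays on the right. Points are arrays (2 per group), bars are group means, open points are not well above background, and every panel spans the same height. Id1 and Id2 lie higher and Bmp4, Bambi and Smad7 lower after the mimic without overlap, while the groups of the other members overlap.

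Id1 encodes the family member most often used as a readout of BMP signalling. Its probe (NM_012797) lay at 2.40 and 2.25 in the miR-125a-3p arrays, against 1.90 and 2.07 in the miR-neg arrays. Both mimic arrays were above both control arrays. The group means were 2.33 ± 0.10 after the mimic and 1.99 ± 0.12 in the controls (SD, n = 2 each). The difference of 0.34 (SE 0.11) corresponds to a 1.27-fold higher level, with a 95% interval of 1.03 to 1.55, and its adjusted p in limma was 0.214. Differences of at least this size occurred in 19.0% of all features.

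Id2, which like Id4 is known to bind the Olig factors, lay at 3.82 and 3.87 after the mimic, against 3.57 and 3.74 in the controls. The groups did not overlap, but the nearest arrays were 0.08 apart while the controls alone were 0.17 apart. The difference was 0.19 (SE 0.10, interval -0.07 to 0.46), a fold of 1.14, and it did not pass (adjusted p = 0.363 in limma). It was 0.11 without miR-neg replicate 1 and 0.28 without miR-neg replicate 2.

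Id4 lay at 0.73 and 0.70 after the mimic, against 0.32 and 0.74 in the controls. The mimic arrays fell between the controls, which were far apart from each other. Its difference of 0.19 (SE 0.16, interval -0.26 to 0.64, adjusted p = 0.585 in limma) rests on miR-neg replicate 1, and it became -0.022 without that array. The spread between the controls of Id4, with an SD of 0.30, was the widest of the members that were well above background on all 4 arrays.

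Id3, the remaining Id gene, gave processed signals of 3.34 and 3.86 after the mimic, against 4.62 and 3.66 in the controls. These lie under the lowest signal well above background, which was 14.3 and 13.6 on the mimic arrays and 20.2 and 15.9 on the control arrays. The probe therefore gives no comparison, and it does not tell a silent gene from a probe that failed to bind. The 3 measured Id genes all had differences above 0, between 0.19 and 0.34, while 52.9% of all features lay above 0. Of the 3, 0 passed, and the sign of Id4 turned without miR-neg replicate 1.

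Bmp4 encodes the ligand. It lay at 5.18 and 5.09 after the mimic, against 5.46 and 5.30 in the controls. Both mimic arrays were below both controls, by 0.12 at the nearest. The processed signals were 25440 and 24477 after the mimic and 32807 and 26791 in the controls, far above background on every array. The difference was -0.24 (SE 0.10, interval -0.51 to 0.02), a fold of 0.845, with an adjusted p of 0.288 in limma.

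Nog encodes noggin, a secreted protein that binds BMP ligands and keeps them from their receptors. It lay at -2.86 and -2.63 after the mimic, against -2.62 and -2.67 in the controls. The groups overlapped, and the lower control lay between the mimic arrays. The difference was -0.10 (SE 0.11, interval -0.40 to 0.21, adjusted p = 0.685 in limma), and its sign turned, to 0.020, without miR-125a-3p replicate 1.

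Bambi encodes a receptor-like membrane protein without a kinase domain, which dampens signalling. It lay at 1.08 and 1.06 after the mimic, against 1.11 and 1.28 in the controls. The groups did not overlap, with the nearest arrays 0.03 apart. The difference was -0.13 (SE 0.10, interval -0.39 to 0.14, adjusted p = 0.532 in limma), and it shrank to -0.038 without miR-neg replicate 2.

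Smad1 encodes the Smad that BMP receptors phosphorylate. It lay at 2.52 and 2.34 after the mimic, against 2.39 and 2.52 in the controls, and the groups overlapped almost fully. Its difference was -0.02 (SE 0.11), with an interval of -0.32 to 0.27 and an adjusted p of 0.927 in limma. The interval in folds ran from 0.801 to 1.21. The array measures transcripts only, and the phosphorylation of Smad1 was not measured.

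Smad7 encodes an inhibitory Smad that blocks both BMP and TGF-beta receptors. It lay at 0.86 and 0.70 after the mimic, against 1.23 and 1.07 in the controls. The groups were 0.22 apart at the nearest, and arrays within a group differed by 0.16 in both groups. The means were 0.78 ± 0.11 after the mimic and 1.15 ± 0.11 in the controls (SD, n = 2 each). The difference of -0.37 (SE 0.11) was the largest in size among the members. It corresponds to a fold of 0.771 with a 95% interval of 0.629 to 0.946, and its adjusted p in limma was 0.192.

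Smad6, the inhibitory Smad that acts mainly on the BMP branch, was dim. Its processed signals were 18.6 and 29.6 after the mimic, where both arrays were well above background, against 21.7 and 16.3 in the controls, where neither was. The lower mimic array lay between the controls. The bound and the plain change were both 1.26-fold (log2 0.33), because the controls' own signals were above the lowest signal called well above background. The fit gave an SE of 0.26 and an adjusted p of 0.539 in limma, and the difference shrank to 0.07 with normexp background correction. Smad6 entered the test only through the mimic arrays, so its sign is tied to the filter, and the difference was 0.0081 without miR-125a-3p replicate 2.

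**Figure D2:**
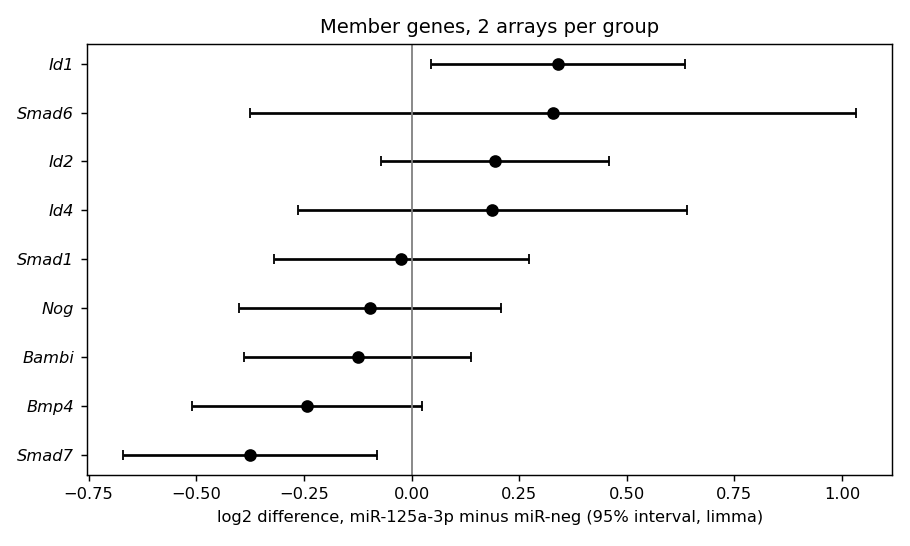
The plot gives the log2 difference, miR-125a-3p minus miR-neg, of the 9 members tested (points) with the 95% interval of the limma fit (bars), ordered by size from the largest positive at the top. Only the intervals of Id1 (0.05 to 0.63) and Smad7 (-0.67 to -0.08) lie to 1 side of 0, before any adjustment for the number of features.

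The promoters of Id1 and Smad7 are shown because these members had the smallest p-values and differences of opposite sign. They are RefSeq promoters, 250 bases before to 50 after the start, build GRCr8, on the plus strand at chr3:161671314-161671613 for Id1 and chr18:71263258-71263557 for Smad7. Capitals mark GGCGCC, the core of the BMP response element described in Id genes, searched on both strands.
Id1: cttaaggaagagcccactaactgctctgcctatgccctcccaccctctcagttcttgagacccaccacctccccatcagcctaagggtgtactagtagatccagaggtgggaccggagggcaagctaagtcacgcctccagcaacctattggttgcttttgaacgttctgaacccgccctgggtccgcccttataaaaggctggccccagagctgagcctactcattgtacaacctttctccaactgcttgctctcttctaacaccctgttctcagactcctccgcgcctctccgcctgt
Smad7: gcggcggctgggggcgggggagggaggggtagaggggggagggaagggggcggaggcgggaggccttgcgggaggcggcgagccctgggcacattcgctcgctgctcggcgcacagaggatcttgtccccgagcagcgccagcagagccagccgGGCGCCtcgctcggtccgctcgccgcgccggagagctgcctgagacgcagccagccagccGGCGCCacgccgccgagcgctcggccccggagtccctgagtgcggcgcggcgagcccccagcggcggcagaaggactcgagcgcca
The Smad7 window held GGCGCC 96 and 36 bases before the start, and the Id1 window did not hold it. Bases further from the start were not searched. Of the 9 members with a promoter in the table (Smad6 had no entry), 4 held GGCGCC, namely Smad7, Nog, Bambi and Id4, against 11% of 33469 rat promoters. This motif is all G and C, and the 11% was not matched for GC content. GC content was 77.7% for Smad7, 73% for Nog, 70.3% for Bambi and 65% for Id4. In the windows without the motif it ran from 55.7% for Id1 to 67.7% for Smad1. The Smad palindrome GTCTAGAC was in 0 of 9 member promoters, against 0.197% of all. The E-box CAGNTG was in 4 of 9 (Id1, Id2, Bmp4 and Bambi), against 50.2% of all, and the seed complement TCACCTG in 0 of 9, against 5.58% of all. These are letter matches in short windows and give no factor binding.

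The rest of the pathway was examined through 45 other BMP genes, of which 40 had a named probe and 31 were tested. None of the 31 passed in limma, a count of 0, against 0.683% of all features. At an unadjusted p of 0.05 there were 8 of 31, 4 higher and 4 lower, against 19.6% of all features. Differences above 0 were found for 16 and below 0 for 15, with a median of 0.0056 beside 0.015 for all features. By role, 5 of 6 ligands lay below 0, 5 of 7 receptors and coreceptors above, 4 of 7 secreted inhibitors above, 4 of 6 intracellular genes below and 4 of 5 targets above, while 52.9% of all features lay above 0. Several of these signs rest on values next to 0, such as -0.0065 for the ligand gene Bmp5 and 0.0056 for the receptor gene Acvr2a.

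Of the 4 genes with the smallest p-values, the 3 described here had larger differences than any member. Smurf1 encodes a ubiquitin ligase that marks Smad1 for degradation and works with the inhibitory Smads. It lay at 1.36 and 1.30 after the mimic, against 2.33 and 2.04 in the controls, a difference of -0.86 (SE 0.13, adjusted p = 0.081 in limma). The gap between groups was wider than the spread within either group.

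Fst encodes follistatin, which binds activins and some BMPs. It lay at -3.30 and -3.36 after the mimic, against -2.84 and -2.78 in the controls, a difference of -0.52 (SE 0.08, adjusted p = 0.0842 in limma). A second Fst probe, well above background on 3 of 4 arrays, differed by -0.93. Rgma, a membrane-anchored BMP coreceptor and axon guidance molecule, lay at 2.10 and 2.14 after the mimic, against 1.66 and 1.58 in the controls. Its difference was 0.50 (SE 0.08, adjusted p = 0.0894 in limma), and the groups were well apart.

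Smurf1 passed when only probes well above background on all 4 arrays were tested (adjusted p = 0.043 in limma). With a variance trend, Smurf1 and Rgma passed (adjusted p = 0.00105 and 0.00349 in limma), and with normexp Smurf1, Rgma and Fst did (0.00111, 0.00571 and 0.0461 in limma). Over all alternatives the adjusted p reached 0.323 for Smurf1, 0.347 for Fst and 0.359 for Rgma. The difference of Fst was smaller in size with normexp, at -0.31. Among further genes, chosen after their values were seen, Bmp2, a ligand close to Bmp4, differed by -0.54, and its second probe by -0.24. Chrd, which encodes the antagonist chordin, differed by 0.31 and the target gene Msx1 by 0.39 (adjusted p = 0.243, 0.176 and 0.209 in the same order in limma).

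**Figure D3:**
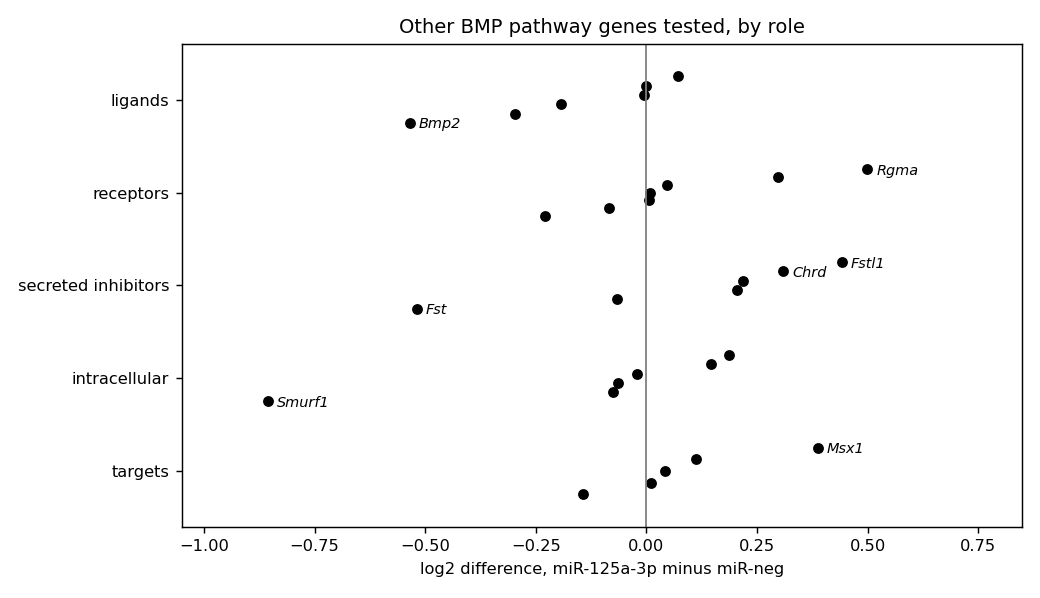
Points are other BMP pathway genes tested (1 that is not reported here is not drawn), placed by their log2 difference, miR-125a-3p minus miR-neg, in rows by role. Genes more than 0.3 from 0 are named. Smurf1 (-0.86), Bmp2 (-0.54) and Fst (-0.52) lie below the others drawn and Rgma (0.50) above them, and none of the 31 tested passed.

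The binding partners of Id proteins differed about as much as any feature, with a median size of 0.14 beside 0.15. Of 8 E protein and helix-loop-helix genes tested, 0 passed in limma and 0 had an unadjusted p under 0.05, against 0.683% and 19.6% of all features. The median difference of the 8 was 0.09. Among the 4 with the smallest p-values were Tcf12 (-0.21), Olig1 (0.18) and Hes5 (0.10), with adjusted p-values from 0.46 to 0.578 in limma. The E protein genes Tcf3 and Tcf4 differed by 0.07 and -0.06. Olig2, a partner of Id2 and Id4, lay at 6.36 and 6.30 after the mimic, against 6.27 and 6.42 in the controls, a difference of -0.01 with an interval of -0.26 to 0.24.

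The labelled cell type was checked on markers. All 9 precursor markers with a named probe and all 10 mature oligodendrocyte markers were well above background on all 4 arrays, so that the cultures held transcripts of both stages. The same held for the 14 astrocyte markers and the 8 neuron markers tested, so detection alone does not set the labelled cell type apart. Astrocyte markers mostly lay higher after the mimic. Of 14 tested, 12 lay above 0 with a median of 0.39, 9 had an unadjusted p under 0.05 (8 higher and 1 lower) against 19.6% of all features, and 1, Aldh1l1, rose (1.90, SE 0.09, adjusted p = 0.0342 in limma). Their summed level over 15 genes, in units of the array's 75th percentile, was 224 and 226 after the mimic, against 194 and 207 in the controls. Aldoc, a glycolytic enzyme gene, made up between 76.7% and 80.6% of it, and the rest summed to 52.2 and 50.8 after the mimic, against 37.8 and 40.3 in the controls. Gjb6 was well above background on 0 arrays.

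Microglial and macrophage markers were well above background on all 4 arrays for 8 of 9 tested, and 6 of these 8 lay above 0 (median 1.32). The ninth, C1qc, entered the test only through the mimic arrays and has a bound of 0.56. Of the 9, 6 had an unadjusted p under 0.05, all higher, against 19.6% of all features. C1qc, whose direction is tied to the filter, is 1 of these 6. C1qa rose (1.45, SE 0.10, adjusted p = 0.0377 in limma). The summed level of the microglial and macrophage list over 11 genes was 3.60 and 4.06 after the mimic, against 3.05 and 3.55 in the controls. Cx3cr1, at -0.06, made up between 48.7% and 61.3% of it, and Ptprc was above background on 0 arrays. Endothelial, pericyte and fibroblast markers were well above background on all 4 arrays for 5 of 7 tested, and 4 of these 5 lay above 0 (median 0.65). The endothelial genes among the 5 differed little or lay lower, Cdh5 by 0.06 and Kdr by -0.17. The others, Col1a1, Col1a2 and Tagln, differed by 1.42, 0.65 and 1.21. Pdgfrb entered the test only through the mimic arrays and has a bound of 0.40, and Col3a1 was well above background on both mimic arrays and 1 control array. Of the 7, 5 had an unadjusted p under 0.05, all higher, against 19.6% of all features. Pdgfrb, whose direction is tied to the filter, is 1 of these 5. Tagln rose (1.21, SE 0.08, adjusted p = 0.0376 in limma). The sum of this list over 12 genes was 1.33 and 1.46 after the mimic, against 0.947 and 1.02 in the controls, with Pecam1, Lum and Dcn above background on 0 arrays. Kdr made up between 20.9% and 36.6% of that sum.

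Mature oligodendrocyte markers lay below 0 in 9 of 10 (median -0.64). Of the 10, 7 had an unadjusted p under 0.05, all lower, against 19.6% of all features. Aspa fell (-1.55, SE 0.12, adjusted p = 0.0413 in limma). The summed level of these markers was 657 and 638 after the mimic, against 935 and 963 in the controls, and Mbp, the myelin basic protein gene, made up between 49.7% and 54.4% of it. Precursor markers (median 0.04) and neuron markers (median 0.09) had 0 of 9 and 0 of 8 past the threshold in limma. Each list had 2 at an unadjusted p under 0.05, against 19.6% of all features. The precursor genes Pdgfra (-0.37) and Vcan (-0.29) were lower, and the neuron genes Snap25 (0.48) and Stmn2 (0.26) higher. Precursor sums were 387 and 405 after the mimic against 389 and 412 in the controls, and neuron sums 15.8 and 16.5 against 14.6 and 14.3. Astrocytes and mesenchymal cells are also known to express Id genes and BMP components, and the part of these markers in the members' values was not tested. Each of the 4 marker calls (Aldh1l1, C1qa, Tagln and Aspa) was lost with a replicate block, without the filter on dim probes and with any 1 array left out. Every other call was lost there too, so the loss is not particular to these 4 genes. In bulk RNA, fewer cells of a type and less RNA per cell cannot be told apart.

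**Figure D4:**
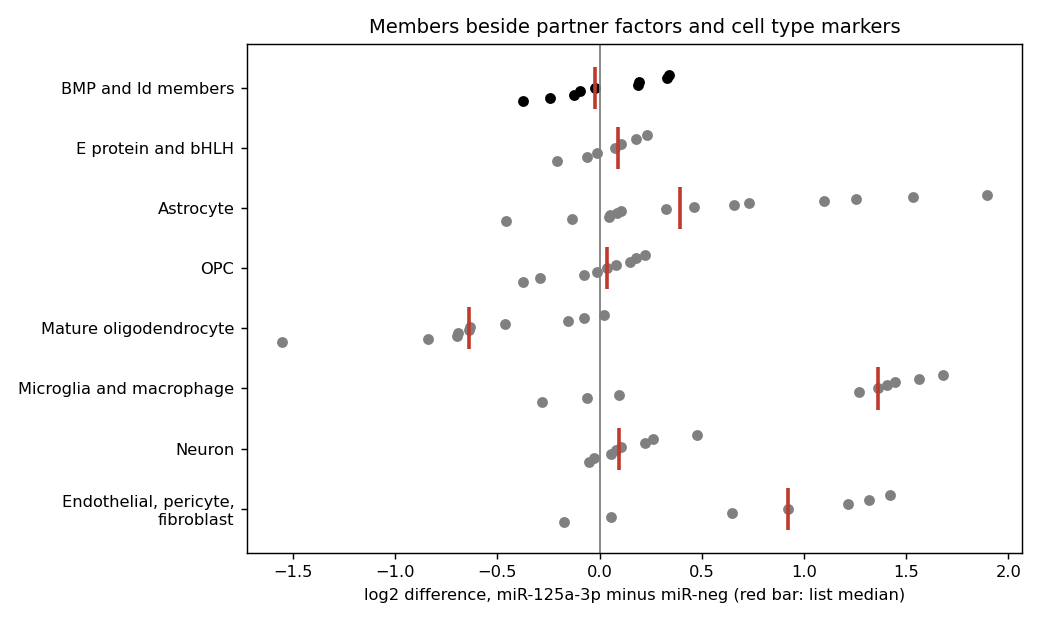
Rows give the members, the Id partner genes and the marker lists, with each point a tested gene (1 partner gene that is not reported here is not drawn) at its log2 difference, miR-125a-3p minus miR-neg, and a red bar at the median of all tested genes of a list, those dim in 1 group included. The members lie between -0.37 and 0.34, while astrocyte markers reach 1.90 and mature oligodendrocyte markers -1.55.

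The members' directions were followed through 17 other settings (16 for Smad6). Id1, Id2, Smad6, Smad7, Bmp4 and Bambi kept their sign in each of these settings, but much of this was fixed beforehand. A change of variance model, threshold, block or filter leaves the difference of a member with 1 probe as it was. Leaving out 1 array cannot turn a sign where the groups do not overlap, as for Id1, Id2, Bmp4, Bambi and Smad7. For Smad6 the sign is tied to the filter. Id1 ranged from 0.26 to 0.42 and Smad7 from -0.45 to -0.30, with the extremes when 1 array was left out. A variance trend in the test, which lets brighter probes have a smaller spread, brought both past the threshold (adjusted p = 0.0412 for Id1 and 0.0349 for Smad7 in limma), where 2037 of all features passed. With normexp the adjusted p-values were 0.0507 and 0.0561. With the replicate number as a block they were 0.315 and 0.221, and no other setting brought a member past 0.05. Over all of them the adjusted p ran from 0.0412 to 0.516 for Id1 and from 0.0349 to 0.511 for Smad7.

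**Figure D5:**
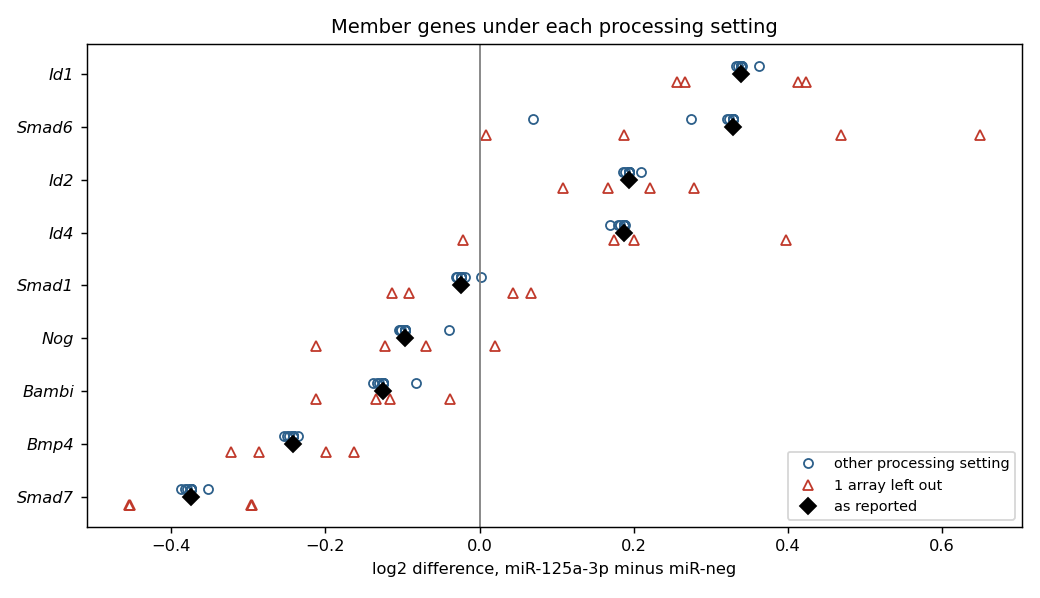
Each row is a member, with the log2 difference as reported (diamond), under the other processing settings (circles) and with 1 array left out (triangles). The lowest and the highest value of each member come from leaving out 1 array, which turns the sign of Id4, Nog and Smad1.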

How the data were processed

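The authors deposited, per the file headers, 4 single-colour (Cy3) scanner files with intensity values (Agilent Feature Extraction 10.7.3.1, per the submitters' processing notes), background-subtracted and detrended within each array, and the flags of each spot. The deposited value table held log2 values which, for 100% of probes on each array, equalled the log2 processed intensity minus 1 constant within 0.01. Their medians were -4.07 and -4.13 for miR-125a-3p and -4.06 and -4.13 for miR-neg. The median signals used for normexp (offset 50) were intensities too, per the file headers.

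Control spots and flagged spots were left out (65 probes). Repeated spots were combined as the mean log2 value of their probe, less the 75th percentile of their array. Probes well above background on at least 2 arrays were kept (27235), and the one with the highest mean stood for its gene, which left 23142 features. RefSeq accessions named 21084 of the 45533 probes that remained after flagged spots were left out (46.3%), through the GRCr8 gene table. The test was two-sided, by lmFit and eBayes of limma (version 3.58.1, R 4.3.3), adjusted over all features at 0.05, and was checked on simulated data. The simulated arrays were independent and held changes larger than any member's difference. That check therefore cannot speak for differences of the members' size or for arrays that are not independent. The precision is limited by the number of arrays. The text names every member, the 4 genes of smallest p in the pathway and partner lists and any list gene past the threshold, except 2 list genes that are not reported here by name or value and stay in the counts. Members and lists were chosen with earlier results of these data known. Alternatives were other scalings, background corrections, filters, variance models, a replicate block and leaving out each array.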

Additional observations from a re-analysis of the deposited data

How the results depend on the processing

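Normexp on median signals was chosen after seeing the data, as the scanner files analysed give no mean signal of the spots, and the planned fit on mean signals was not run. The 158 features past the threshold in limma became 83 with quantile normalization, 599 on probes above background on all 4 arrays, 2037 with a variance trend, 1612 with normexp and 989 at a threshold of 0.1. The count was 0 without a filter on dim probes (3963 at an unadjusted p under 0.05), 0 with a replicate block (3950) and 0 with a slide axis block, which is the same fit, and 0 to 0 when any array was dropped (2768 to 4118). The single array left in a group borrows its spread from the other group. Same-numbered arrays had deviations correlated at 0.0504, a value that both pairs share by construction, so the numbers were not taken to pair the samples.

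The members past the threshold were 2 with a variance trend and 0 in every other setting. Other BMP pathway genes numbered 0 as reported, 4 with normexp, 2 on probes above background on all 4 arrays, 3 with a variance trend and 4 at a threshold of 0.1. The astrocyte, mature oligodendrocyte, microglia and endothelial-to-fibroblast lists had 1 each. Without the filter, with either block and with 1 array left out (0 to 0) each had 0. In the same order they had 9, 7, 5 and 4 with normexp or a variance trend, 6, 5, 4 and 3 when all 4 arrays had to be above background, and 6, 6, 5 and 4 at a threshold of 0.1. Precursor markers had 2 and neuron markers 1 with normexp or a variance trend, and neuron markers 1 at 0.1. Median centring gave 3 astrocyte and 2 microglia genes, quantile normalization 0 mature oligodendrocyte genes, the mean of probes 0 mature oligodendrocyte and 2 microglia genes, and every kept probe 2 microglia probes. For these shifts the cause was not tested.

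Smad1 turned to 0.00149 with normexp. With 1 array left out, Smad1 ranged from -0.11 to 0.067, Id4 from -0.022 to 0.40, and Nog from -0.21 to 0.020. Smad6, dim in the controls, ranged from 0.0081 to 0.65. Signal over background limits Smad6 and Id3, and the number of arrays limits the others.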
